A study of Mus musculus with 11 samples.

Results

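The genes of B cell receptor (BCR) proximal signaling were 9 of the 48795 genes quantified by RNA sequencing in sorted B cells of mouse spleen. They were chosen by symbol for the place of their products directly below the receptor, not by any measured value: Cd79a and Cd79b, the receptor chains that signal, the kinases Syk, Lyn and Btk, the adaptor Blnk, and the inhibitors Cd22, Ptpn6 and Inpp5d. Each of the 9 symbols matched 1 row of the table, and all 9 passed the filter on low values (a mean of 1 TPM) and were tested in both comparisons. TPM are reads per transcript length scaled to a fixed total in each library, so levels of different genes can be set side by side within a library.

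The 11 libraries came from female mice on the C57BL/6 background, 8 to 12 weeks old, taken on day 10 after intravenous immunization with sheep red blood cells (SRBC), which induces germinal centers (GCs). Light zone (LZ) GC B cells were sorted as Fas+ CD38neg cells with CD86high and CXCR4low staining from 4 Myc_WT_ mice (mice 1 to 4) and 4 Myc_VD_ mice (mice 5 to 8), and memory B cells (MBCs) as CD38+ CD273+ cells from Myc_WT_ mice 1, 3 and 4, the same animals that gave LZ libraries. Both sorts took B220+ cells negative for CD138 and IgD. Myc_VD_ mice carry the V394D substitution at the endogenous Myc locus, hence in every cell and not in B cells alone, and the changed MYC does not bind its partner MIZ1 but still binds MAX. The study compared LZ B cells of the genotypes to learn what MYC–MIZ1 complexes do in selected GC B cells, and MBCs with LZ B cells to define the expression profile of MBCs. The Myc_VD_ mice share a title prefix that no Myc_WT_ mouse has, so genotype and that prefix cannot be told apart. Each library is 1 mouse, and the number of reads behind it is unknown. Genes above 0 TPM numbered 15460 to 19537 in Myc_WT_ LZ, 13169 to 16421 in Myc_VD_ LZ and 11527 to 16040 in MBC libraries, the lowest in MBC mouse 3, and the part of this difference in the results was not tested.

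As background, an antigen bound by surface immunoglobulin lets LYN phosphorylate the tyrosine motifs in the tails of CD79A and CD79B. SYK docks on these motifs and phosphorylates the adaptor BLNK, on which BTK and phospholipase C gamma assemble, and calcium release and protein kinase C follow. LYN also phosphorylates CD22, which recruits the phosphatase SHP-1 (Ptpn6), and with the lipid phosphatase SHIP-1 (Inpp5d) this arm holds the signal back. GC B cells are known for damped BCR signaling with high phosphatase activity, and BCR strength is an input that LZ B cells are selected on.

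Whether the sorted cells were what the labels say was checked with lists of marker genes. Cd38, whose product was used in the sort, lay between 199.7 and 276 TPM in MBCs and between 11.4 and 14.8 TPM in Myc_WT_ LZ libraries, and 8 of 10 memory genes were higher in every MBC library than in any Myc_WT_ LZ library, while 9 of 10 LZ genes were lower in every MBC library. Other signals moved with the MBC group as well. The summed TPM of 8 naive follicular genes, Ighd among them, were 378 to 386 in Myc_WT_ LZ B cells and 1303 to 1319 in MBCs, and 7 of the 8 were higher in every MBC library. The sum of 12 myeloid genes was 67.9 to 107 in Myc_WT_ LZ B cells, 58.2 to 78.9 in Myc_VD_ LZ B cells and 209 to 381 in MBCs, where 4 of the 12 lay above every Myc_WT_ LZ library while S100a8, S100a9 and Mpo were listed at 0. General B cell genes moved with the MBC group too: 5 of 7 were higher in every MBC library, and their sum was 8263 to 12957 TPM in Myc_WT_ LZ B cells and 13136 to 15712 TPM in MBCs. Of 8 dark zone genes 5, Mki67 among them, were lower in every MBC library than in any Myc_WT_ LZ library, and 1 was higher. Their sum overlapped, at 633 to 1161 TPM in Myc_WT_ LZ B cells and 774 to 1063 TPM in MBCs. Of 8 plasma cell and 10 T cell genes none was higher in every MBC library. The MBC library of mouse 3 stood apart with 6713 TPM of 8 erythroid genes, against 7.7 and 55.7 in the other MBC libraries. This sum was 118 to 229 TPM in Myc_WT_ LZ libraries and 358, 419, 360.5 and 73.2 TPM in Myc_VD_ mice 5 to 8. Genes of ribosomal RNA took 35.7 to 44.5% of the TPM in Myc_WT_ LZ, 44.1 to 61.3% in Myc_VD_ LZ and 36.1 to 37.5% in MBC libraries, and immunoglobulin, ribosomal and other abundant RNA leave less of the fixed total for the 9 genes. Myc itself had means of 36.0 TPM in Myc_WT_ and 46.1 TPM in Myc_VD_ LZ B cells, a level that cannot show a point substitution.

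The promoter windows of the genes the results turn on are shown here, since members that move together or apart may be read against them: Syk and Cd79a, which were higher in MBCs, and Ptpn6 and Blnk, whose order of levels differed between groups. Each window holds 250 bases before to 50 after a transcript start of RefSeq on GRCm38.p6, read 5′ to 3′ on the gene's strand, and capitals mark matches, on either strand, to the letters ATGCAAAT (the octamer bound by OCT factors), ACTTCC (a core of sites bound by ETS factors such as PU.1) and CACGTG (the E-box bound by MYC with MAX). No marked matches overlap. The windows lie at chr7:24897247-24897546 (+ strand, Cd79a), chr13:52583187-52583486 (+ strand, Syk, the nearer of 2 windows to the annotated start), chr19:40994172-40994471 (- strand, Blnk) and chr6:124738660-124738959 (- strand, Ptpn6).
Cd79a: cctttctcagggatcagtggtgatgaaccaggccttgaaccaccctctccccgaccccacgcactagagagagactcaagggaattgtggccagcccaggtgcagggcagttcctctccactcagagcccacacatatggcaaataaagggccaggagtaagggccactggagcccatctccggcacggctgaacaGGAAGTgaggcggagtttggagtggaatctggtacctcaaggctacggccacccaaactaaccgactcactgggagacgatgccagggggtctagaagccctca
Syk: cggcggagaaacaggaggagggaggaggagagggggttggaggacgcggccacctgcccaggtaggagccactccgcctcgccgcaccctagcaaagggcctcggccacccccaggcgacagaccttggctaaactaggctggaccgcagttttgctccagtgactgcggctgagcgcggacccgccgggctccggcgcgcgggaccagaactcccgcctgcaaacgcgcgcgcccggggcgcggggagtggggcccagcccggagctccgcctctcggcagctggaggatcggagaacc
Blnk: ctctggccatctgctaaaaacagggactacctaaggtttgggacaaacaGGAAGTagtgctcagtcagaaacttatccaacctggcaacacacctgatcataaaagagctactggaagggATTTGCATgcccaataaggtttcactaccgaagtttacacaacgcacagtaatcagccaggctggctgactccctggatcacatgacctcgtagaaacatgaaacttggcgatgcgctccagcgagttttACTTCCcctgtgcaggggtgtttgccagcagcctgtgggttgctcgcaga
Ptpn6: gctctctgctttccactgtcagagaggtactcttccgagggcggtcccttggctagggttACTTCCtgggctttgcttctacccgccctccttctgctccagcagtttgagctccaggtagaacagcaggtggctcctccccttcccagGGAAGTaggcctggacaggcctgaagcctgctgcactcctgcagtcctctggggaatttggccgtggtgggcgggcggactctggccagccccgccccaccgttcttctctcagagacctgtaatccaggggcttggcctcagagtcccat

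Of the 9 genes, 7 had a window in the RefSeq table, all but Cd79b and Lyn. The ETS letters were found in 4 of the 7 (Cd79a, Blnk, Ptpn6 and Inpp5d) and in 23.8% of all 32851 windows of the same length. The octamer was found in Blnk alone, against 1.74% of all windows. The E-box was in none of the 7 windows and in 7.15% of all windows, which says only that these letters are not in these 300 bases. The 2 genes called in MBCs shared no match, as Cd79a held 1 ETS match and Syk none of the 3 motifs. In GENCODE M21 on GRCm38 Cd79a lies at chr7:24897381-24902197, Cd79b at chr11:106311341-106314762, Syk at chr13:52583173-52648792, Lyn at chr4:3678115-3813122 and Btk at chrX:134542336-134583570. Blnk lies at chr19:40928927-40994535, Cd22 at chr7:30865402-30880342, Ptpn6 at chr6:124720707-124738714 and Inpp5d at chr1:87620312-87720507. Lyn, Btk, Cd22 and Ptpn6 overlap annotated genes on the other strand, and the authors quantified reads by strand.

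In Myc_WT_ LZ B cells the receptor chains and Cd22 were the most abundant of the 9 and Btk the least. Mean levels (± SD, n = 4) were 705 ± 142 TPM for Cd79a, 686 ± 104 for Cd79b, 404 ± 11.5 for Cd22, 209 ± 19.4 for Ptpn6, 189 ± 29.3 for Blnk, 99.4 ± 16.4 for Lyn, 90.1 ± 11.4 for Syk, 74.6 ± 8.12 for Inpp5d and 53.2 ± 8.48 for Btk. All 9 sat high among the 12876 genes that averaged 1 TPM or more there: 98.9% of those genes were lower than Cd79a and 85.3% were lower than Btk. Cd79a exceeded Cd79b in 2 of 4 libraries and Lyn exceeded Syk in 3 of 4, so these neighbours did not differ beyond their spread. Each other neighbour kept its place in 4 of 4 libraries, though the means of Ptpn6 and Blnk, and those of Syk and Inpp5d, were closer than their SDs added together. Cd22 was the steadiest of the 9 in this group, with values of 408, 419, 393.9 and 396 TPM in mice 1 to 4.

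**Figure D1:**
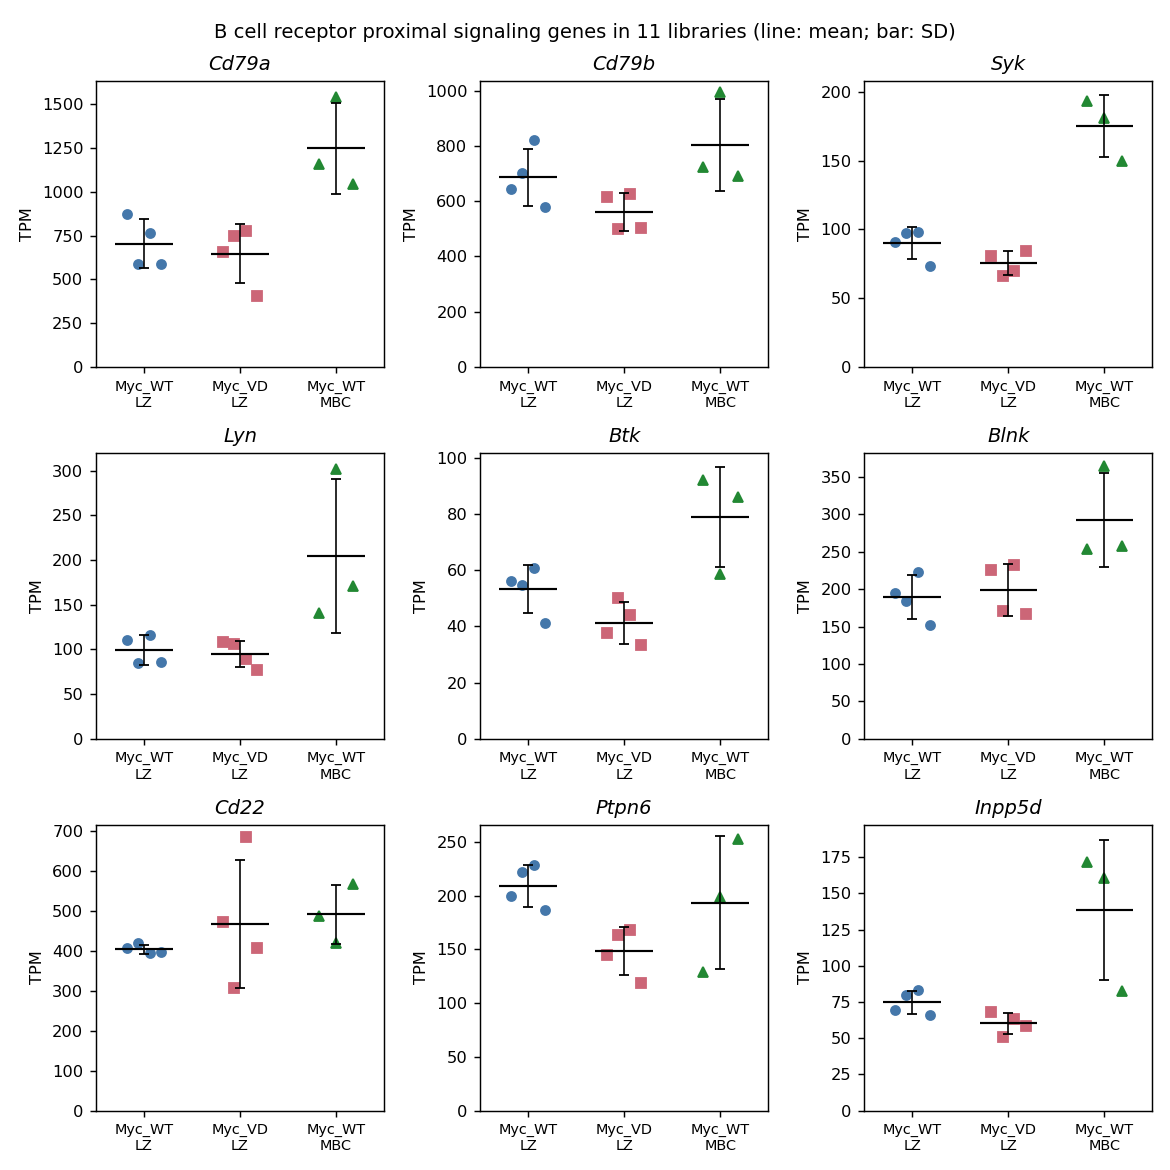
Level of each of the 9 genes in every library, in TPM on a linear axis from 0, with circles for Myc_WT_ LZ, squares for Myc_VD_ LZ and triangles for Myc_WT_ MBC libraries, a line at the mean and a bar of 1 SD. The 3 MBC libraries lie above all 4 Myc_WT_ LZ libraries for Cd79a, Syk, Lyn, Blnk and Cd22, and the 4 Myc_VD_ libraries lie below all 4 Myc_WT_ LZ libraries for Ptpn6.

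MBCs had higher RNA levels of Syk and Cd79a than LZ B cells of the same genotype. The mean of Syk was 1.94 times and that of Cd79a 1.77 times the LZ mean, and both passed limma at an adjusted p of 0.05, the only ones of the 9 to do so. Among all 13245 genes tested, 9.2% passed, 4.17% as higher and 5.04% as lower. The other 7 did not pass, with log2 differences from -0.16 for Ptpn6 to 0.97 for Lyn. With 3 libraries against 4 this does not show equal levels, and the intervals given for each gene give the range around each difference. The median over the 9 was 0.62 on the log2 scale, against -0.14 over all genes tested. A higher TPM in bulk RNA can come from more cells of a type, from more RNA of the gene per cell or from less of other RNA. These cannot be told apart here.

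Cd79a, the alpha chain of the signaling heterodimer, was at 876, 591, 767 and 586 TPM in LZ B cells of Myc_WT_ mice 1 to 4. MBCs of mice 1, 3 and 4 had 1162, 1543 and 1044 TPM. The groups did not overlap, as for 11.8% of all genes tested in this direction, and mouse 3 was the highest MBC library. On the log2 scale the difference was 0.83 (SE 0.22, 95% interval 0.33 to 1.32, limma adjusted p = 0.0494, exact two-sided permutation p = 0.0286, the smallest that 35 groupings can give). This call sat at the threshold: 4 of 18 alternatives kept it, with adjusted p between 0.0154 and 0.211, and with the mouse as a block it was 0.211 at a difference of 0.75. It was lost without any of LZ mice 1 to 4 (adjusted p 0.0709, 0.152, 0.107 and 0.121) and without MBC mouse 1 (0.0777) or 3 (0.0982), and kept without MBC mouse 4 (0.0331).

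Cd79b, the beta chain, did not pass. LZ B cells of the 4 Myc_WT_ mice had 643, 700.2, 822 and 578 TPM, MBCs had 723, 994 and 690.5 TPM, and the groups overlapped. Its log2 difference was 0.22 (SE 0.20, 95% interval -0.24 to 0.68, limma adjusted p = 0.530), and 0.055 without MBC mouse 3, which held the erythroid RNA. The ratio of Cd79a to Cd79b, chosen after the values were seen and given with no test, was 1.36, 0.844, 0.933 and 1.01 in Myc_WT_ LZ B cells, and 1.61, 1.55 and 1.51 in MBCs. Every MBC library thus had more Cd79a than Cd79b by a similar factor, while in LZ B cells of either genotype the order varied from mouse to mouse. In Myc_VD_ LZ B cells the ratio was 1.07, 1.501, 1.24 and 0.806.

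Among the kinases, Syk, which carries the signal from the receptor to the adaptor, passed the test. LZ B cells of Myc_WT_ mice 1 to 4 had 90.9, 97.5, 98.2 and 73.8 TPM. The 3 MBC libraries had 194, 181 and 149.9 TPM, all above the highest LZ library. MBCs exceeded LZ B cells by 0.95 on the log2 scale (SE 0.22, 95% interval 0.45 to 1.46, limma adjusted p = 0.0329, exact permutation p = 0.0286). With the mouse as a block the difference was 0.99 and the adjusted p 0.196, within a range of 0.0122 to 0.196 over 18 alternatives, of which 11 kept the call. It was lost without LZ mouse 1, 2, 3 or 4 (0.0911, 0.0971, 0.0855 and 0.0883) and without MBC mouse 1 (0.0615), and kept without MBC mouse 3 (0.0417) or 4 (0.0205). Within the 3 mice that gave both libraries the differences were 1.08, 0.88 and 1.01 on the log2 scale, the narrowest range of the 9 genes apart from Cd79b.

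Lyn, the Src family kinase that both starts the signal and arms the inhibitors, had the largest mean difference of the 9 but did not pass. Its level was 111, 85.0, 116 and 85.6 TPM in Myc_WT_ LZ libraries. In MBCs it was 140.2, 302 and 171 TPM, above every LZ library, with mouse 3 far above the other MBC mice. This came to a log2 difference of 0.97 (SE 0.30, 95% interval 0.29 to 1.65, limma adjusted p = 0.0778), and 0.65 without MBC mouse 3. It passed without MBC mouse 1 (0.0484), in the fit of all 3 groups (0.0415) and after removal of immunoglobulin and mitochondrial genes (0.0360), with adjusted p between 0.0360 and 0.255 over 18 alternatives.

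Btk, the Tec family kinase that activates phospholipase C gamma, was at 56.1, 54.7, 60.9 and 41.1 TPM in Myc_WT_ LZ libraries. MBCs had 92.1, 58.7 and 85.9 TPM, and mouse 3 lay inside the LZ range. Its log2 difference was 0.55 (SE 0.28, 95% interval -0.08 to 1.18, limma adjusted p = 0.241). Within mice it was 0.71 in mouse 1, -0.052 in mouse 3 and 1.04 in mouse 4, so the MBC library with the highest Lyn had the lowest Btk.

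Blnk, the adaptor that SYK phosphorylates, was at 195, 185, 224 and 153 TPM in Myc_WT_ LZ libraries. Its MBC values of 254, 365 and 258 TPM were all above that range. For Blnk the log2 difference was 0.62 (SE 0.23, 95% interval 0.11 to 1.13, limma adjusted p = 0.120). Blnk passed only after removal of immunoglobulin and mitochondrial genes (adjusted p 0.0393), the lowest of 18 alternatives that reached 0.373.

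None of the 3 inhibitors passed. Inpp5d, the lipid phosphatase, was at 69.7, 79.8, 83.0 and 65.9 TPM in LZ B cells, and MBCs had 171, 161 and 82.7 TPM. MBC mice 1 and 3 were about level with each other and mouse 4 lay inside the LZ range. For Inpp5d the log2 difference was 0.82 (SE 0.30, 95% interval 0.14 to 1.495, limma adjusted p = 0.121), and 1.15 with an adjusted p of 0.0154 without MBC mouse 4, the lowest of alternatives that reached 0.307. It passed as well among mice 1 to 3 alone (0.0418).

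Cd22, the sialic acid binding coreceptor, was at 488, 421 and 567 TPM in MBCs. The lowest of these lay just above the highest Myc_WT_ LZ library, 421 against 419 TPM. The log2 difference of 0.27 (SE 0.18, 95% interval -0.13 to 0.67, limma adjusted p = 0.359) did not pass. It was 0.16 without MBC mouse 4 and 0.38 without MBC mouse 3. Ptpn6, the phosphatase that CD22 recruits, was at 199, 222, 228 and 187 TPM in LZ B cells, and the MBC libraries had 129, 199 and 252 TPM, spread on both sides of the LZ range. Its log2 difference was -0.16 (SE 0.26, 95% interval -0.74 to 0.42, limma adjusted p = 0.730), and 0.10 without MBC mouse 1. Within mice Ptpn6 differed by -0.62, -0.20 and 0.43 in mice 1, 3 and 4, in opposite directions.

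**Figure D2:**
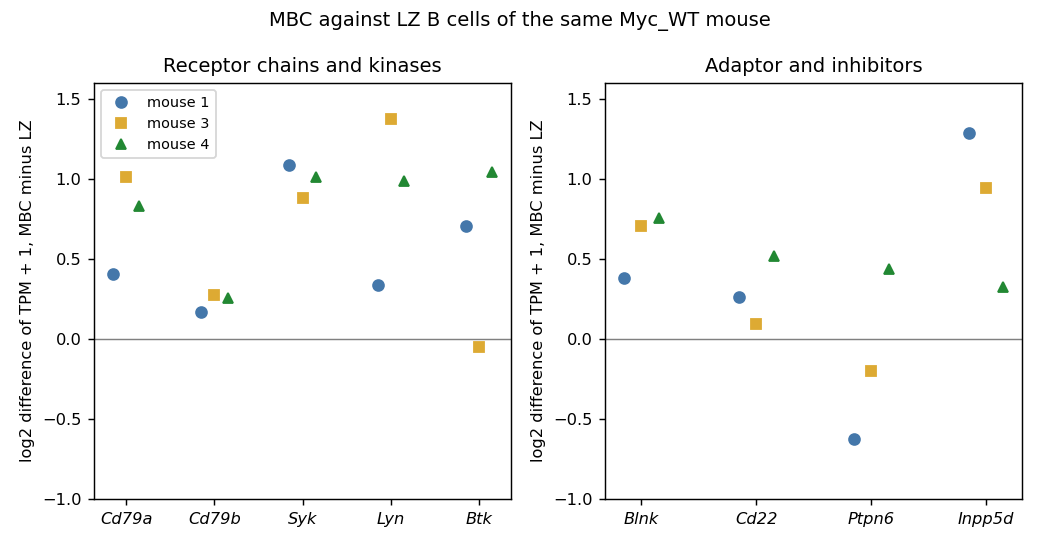
Difference between the MBC and LZ libraries of the same Myc_WT_ mouse for each of the 9 genes, on the log2 scale of TPM + 1, with 1 symbol for each of mice 1, 3 and 4. Syk lies between 0.88 and 1.08 in the 3 mice, while Ptpn6 runs from -0.62 to 0.43 and Btk from -0.052 to 1.04.

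MBCs were above LZ B cells of the same mouse in 3 of 3 mice for 7 genes, in 2 of 3 for Btk and in 1 of 3 for Ptpn6. The share of all genes that were higher in 3 of 3 mice was not counted, so this count has no background. In all, 5 genes (Cd79a, Syk, Lyn, Blnk and Cd22) had MBC libraries above LZ libraries without overlap, where 11.8% of all genes did, and none the reverse, where 14.4% did. At an unadjusted p under 0.05, the threshold of the study's methods, 5 genes were higher (Syk, Cd79a, Lyn, Blnk and Inpp5d) and none lower, against 11.3% of all genes higher and 15.8% lower (27.1% in either direction). General B cell, naive follicular, myeloid and, in mouse 3, erythroid RNA moved with the MBC group as given above, as did 5 dark zone genes. Their part in these differences was not tested. Without MBC mouse 3, which held the erythroid RNA, 1 of the 9 genes passed (Syk), while the count over all genes went from 1219 of 13245 to 1685 of 13287.

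**Figure D3:**
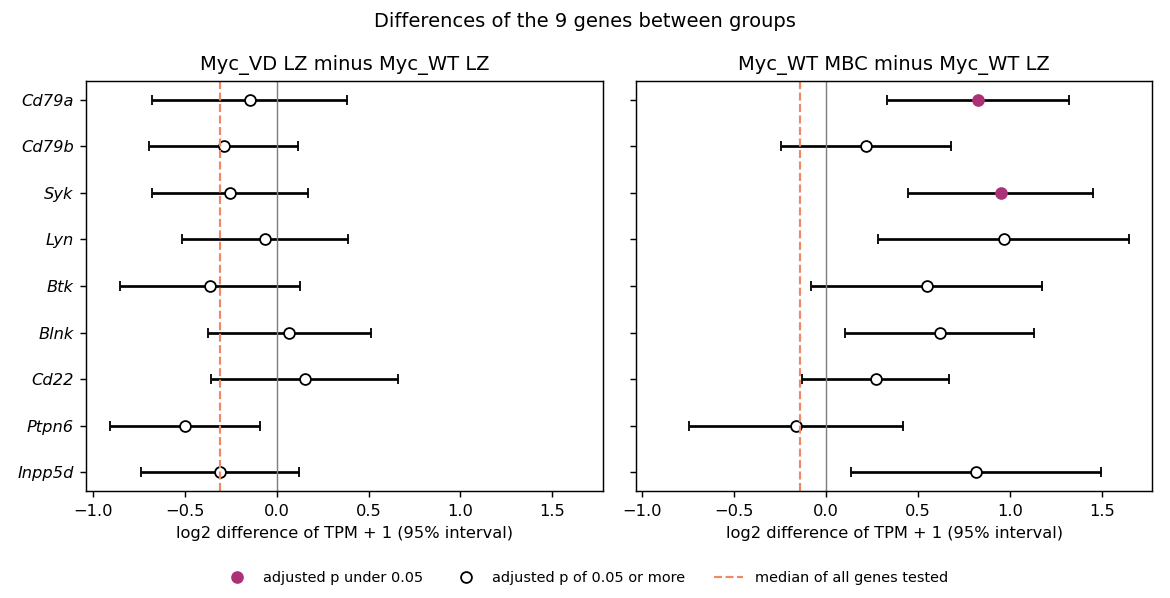
Differences of the 9 genes on the log2 scale of TPM + 1 with 95% intervals from limma, Myc_VD_ LZ minus Myc_WT_ LZ on the left and Myc_WT_ MBC minus Myc_WT_ LZ on the right. Filled points passed at 0.05 (Syk and Cd79a on the right, none on the left), and the dashed line is the median of all genes tested, -0.31 on the left and -0.14 on the right.

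In Myc_VD_ LZ B cells none of the 9 genes passed the adjusted threshold against Myc_WT_ LZ B cells. Few genes did at all, 0.0466% of 12869 (0.00777% as higher and 0.0389% as lower). At an unadjusted p under 0.05 Ptpn6 alone passed, as lower, where 15.7% of all genes did in that direction, 1.24% as higher and 16.9% in either. Which genes passed at this threshold depended on the scaling, a check added after the values were seen. After rescaling by the median ratio Ptpn6 did not pass (unadjusted p = 0.339), while Blnk (limma log2 difference 0.41, unadjusted p = 0.0160) and Cd22 (0.497, unadjusted p = 0.0446) passed as higher, and of all genes 5.52% were higher and 6.3% lower. Blnk alone passed, as higher, after quantile normalization (5.4% of all genes higher and 7.68% lower) and without ribosomal RNA genes (4.55% and 6.56%). None of the 9 passed the adjusted threshold under these scalings. The log2 differences ran from -0.50 for Ptpn6 to 0.15 for Cd22, with a median of -0.25, and the median over all genes tested was -0.31. Both comparisons use the same 4 Myc_WT_ LZ libraries.

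Ptpn6 was at 145, 163, 168 and 119 TPM in LZ B cells of Myc_VD_ mice 5 to 8, against 187 to 228 TPM in Myc_WT_ mice. All 4 Myc_VD_ libraries lay below all 4 Myc_WT_ libraries, as for 9.16% of all genes in that direction (0.816% in the other). Its log2 difference was -0.50 (SE 0.19, 95% interval -0.91 to -0.09, limma unadjusted p = 0.0214 and adjusted p = 0.223, exact permutation p = 0.0286, the smallest that 70 groupings can give). Relative to the median of all genes it was -0.19, and it was -0.15 after rescaling by the median ratio, -0.16 after quantile normalization and -0.19 without ribosomal RNA genes. The share of ribosomal RNA, 44.1 to 61.3% in Myc_VD_ against 35.7 to 44.5% in Myc_WT_ LZ libraries, moved with this shift of the whole table, and leaving those genes out gave the last of these values. The sum of 8 plasma cell genes moved with genotype as well, at 193 to 332 TPM in Myc_VD_ against 401 to 612 TPM in Myc_WT_ LZ libraries, with Jchain and Mzb1 lower in every Myc_VD_ library, and the erythroid sum was higher in 3 of 4 Myc_VD_ libraries than in any Myc_WT_ LZ library. Their part in the value of Ptpn6 was not tested.

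The other inhibitors overlapped between the genotypes. Inpp5d was at 68.2, 51.1, 63.1 and 58.4 TPM in Myc_VD_ mice, with a log2 difference of -0.31 (95% interval -0.74 to 0.12, limma adjusted p = 0.449). Cd22 was at 474, 308, 686 and 407 TPM in these mice, a spread (SD 160.4 TPM) far wider than in Myc_WT_ LZ B cells (SD 11.5 TPM), and no test of that spread was run. Its log2 difference was 0.15 (95% interval -0.36 to 0.66, limma adjusted p = 0.771), and 0.497, 0.503 and 0.465 under median-ratio rescaling, quantile normalization and removal of ribosomal RNA genes.

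The receptor chains overlapped too. Myc_VD_ mice 5 to 8 had 656, 750.5, 776 and 406 TPM of Cd79a and a log2 difference of -0.15 (95% interval -0.68 to 0.38, limma adjusted p = 0.791). For Cd79b they had 614, 500.0, 624 and 504 TPM and a difference of -0.29 (95% interval -0.69 to 0.12, limma adjusted p = 0.455). Mouse 8 was the lowest for Cd79a and near the lowest for Cd79b.

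The kinases and the adaptor gave the same picture. Syk was at 80.6, 66.2, 69.9 and 84.6 TPM in Myc_VD_ mice, a log2 difference of -0.25 (95% interval -0.68 to 0.17, limma adjusted p = 0.536). Lyn was at 108, 106, 88.8 and 77.0 TPM, with a difference of -0.07 (95% interval -0.52 to 0.39, limma adjusted p = 0.898). Btk was at 37.5, 50.1, 44.0 and 33.3 TPM, with a difference of -0.36 (95% interval -0.85 to 0.13, limma adjusted p = 0.437). The values of these kinases overlapped those of Myc_WT_ LZ B cells, and the 95% intervals reach differences of -0.52 or lower that these 4 mice against 4 could not tell from 0. Blnk was at 226, 171, 233 and 167 TPM, with a difference of 0.07 (95% interval -0.37 to 0.51, limma adjusted p = 0.889), and of 0.41, 0.38 and 0.38 after median-ratio rescaling, quantile normalization and removal of ribosomal RNA genes (limma unadjusted p of 0.0160, 0.0257 and 0.0345, adjusted p of 0.301, 0.318 and 0.413). Under rescaling by the median ratio or removal of ribosomal RNA genes the differences of Cd79a, Cd79b, Syk, Lyn and Inpp5d turned positive, between 0.0018 and 0.28, so no direction is given for them.

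Ratios of TPM between the 9 genes do not change when all genes of a library are multiplied by 1 factor, as in median-ratio rescaling, though quantile normalization can change them. These ratios were chosen after the values were seen and carry no test. Blnk over Ptpn6, the activating adaptor over the phosphatase, was 0.980, 0.833, 0.980 and 0.818 in Myc_WT_ LZ B cells. In Myc_VD_ LZ B cells it was 1.56, 1.05, 1.39 and 1.41, and in MBCs 1.97, 1.84 and 1.02. Ptpn6 was thus above Blnk in 4 of 4 Myc_WT_ LZ libraries, in 0 of 4 Myc_VD_ LZ libraries and in 0 of 3 MBC libraries, 2 comparisons that share their control libraries. How many other pairs of genes separate the groups in this way was not counted. MBC mouse 4 came close to the LZ range, with 1.02 against 0.980.

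Syk over Ptpn6 was 0.395 to 0.456 in Myc_WT_ LZ B cells, 0.405 to 0.714 in Myc_VD_ LZ B cells and 0.594 to 1.503 in MBCs, which did not overlap Myc_WT_ LZ B cells. Inpp5d over Ptpn6, the lipid over the protein phosphatase, was nearly fixed in Myc_WT_ LZ B cells at 0.350 to 0.364 and ran from 0.3125 to 0.492 in Myc_VD_ LZ B cells and from 0.328 to 1.33 in MBCs.

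**Figure D4:**
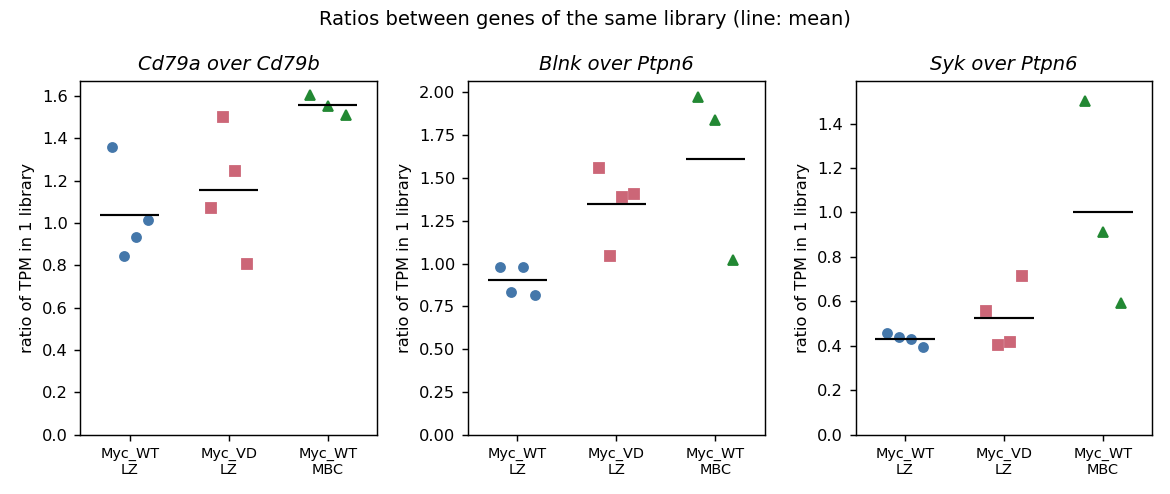
Ratio of TPM of gene pairs within each library, on linear axes from 0, for Myc_WT_ LZ (circles), Myc_VD_ LZ (squares) and Myc_WT_ MBC libraries (triangles), with a line at the mean. Cd79a over Cd79b is 1.51 to 1.61 in MBCs and Blnk over Ptpn6 is at most 0.980 in Myc_WT_ LZ B cells and at least 1.02 elsewhere, while Syk over Ptpn6 is at most 0.456 in Myc_WT_ LZ B cells and at least 0.594 in MBCs.

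Other genes of the BCR pathway were followed on lists of 28 activating and adaptor genes and 28 negative regulators. In MBCs 27 activating genes were tested, of which 6 were called higher and none lower, with a median log2 difference of 0.56. The 6 were Fgr, Malt1, Bank1, Pik3r1, Prkcb and Ptprc. Of 24 negative regulators tested 4 were called higher (Ptpn22, Pirb, Sla and Grap) and 1 lower (Lpxn), with a median of 0.23. With the mouse as a block these counts were 1 (Bank1), 2 (Ptpn22 and Pirb) and 0, where 130 of all 13151 genes were called higher and 118 lower. The background without the block, as above, was 4.17% of all genes called higher and 5.04% called lower. With a library left out, Pik3r1, Grap and Lpxn lost their calls without any 1 of the 4 LZ libraries (limma adjusted p up to 0.0897, 0.0876 and 0.156). Prkcb, a protein kinase C, lost its call without LZ mouse 1, 2 or 4 (up to 0.0907), Ptprc without LZ mouse 2 (0.0594), and Fgr without any library but that of MBC mouse 3 (up to 0.138).

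Among the activating genes, the scaffold Bank1 was at 171 ± 15.9 TPM in Myc_WT_ LZ libraries (SD, n = 4) and 499.8 ± 55.6 TPM in MBCs (SD, n = 3), a log2 difference of 1.54 (limma adjusted p = 0.00303). Malt1, the protease that carries the signal to NF-kappa B, rose from 33.7 ± 2.86 to 108 ± 29.6 TPM (limma adjusted p = 0.0119). Ptprc, which encodes the phosphatase CD45 that activates Src family kinases, was at 1069.5 ± 53.0 and 1962 ± 265 TPM (limma adjusted p = 0.0135). B220, an isoform of CD45, was in the sort of both populations. Pik3r1, a regulatory subunit of phosphoinositide 3-kinase, was at 35.2 ± 2.94 and 85.0 ± 18.4 TPM (limma adjusted p = 0.0240). Plcg2, the phospholipase C that BTK activates, did not pass, at 83.8 ± 17.6 and 98.4 ± 5.32 TPM (limma adjusted p = 0.552).

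Fgr, a Src family kinase gene best known from myeloid cells, was at 5.52 to 7.55 TPM in Myc_WT_ LZ libraries and at 60.4, 12.6 and 36.5 TPM in MBCs (log2 difference 2.04, limma adjusted p = 0.0474). Pirb, an inhibitory receptor also of myeloid cells, was at 3.17 to 5.60 TPM and at 143, 34.5 and 32.6 TPM (log2 difference 3.39, limma adjusted p = 0.00963). Both were highest in MBC mouse 1. Of the 12 myeloid genes, 4 (Csf1r, Itgam, Tyrobp and Cd68) were higher in every MBC library than in any Myc_WT_ LZ library. Tyrobp, an adaptor of myeloid receptors, was at 31.1, 7.51 and 27.8 TPM in MBC mice 1, 3 and 4 and at most 3.88 TPM in Myc_WT_ LZ libraries. Like Fgr, Tyrobp and Cd68 (22.5, 16.6 and 16.7 TPM) were highest in mouse 1 and lowest in mouse 3. Csf1r (9.99, 5.89 and 16.35 TPM) and Itgam (3.84, 5.12 and 9.18 TPM) were highest in mouse 4. Fcer1g was at 53.8 and 62.3 TPM in MBC mice 1 and 4 and listed at 0 in mouse 3, while Lyz2 was at 0.15, 31.2 and 136 TPM. The summed level was 209, 250.1 and 381 TPM, much of it from Cst3 (85.2, 183 and 105 TPM). The part of myeloid RNA in these levels was not tested. Fgr kept its call in 5 of 18 alternatives, with adjusted p between 0.00482 and 0.193.

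Of the other negative regulators, the phosphatase gene Ptpn22, which acts on Src family kinases, was at 1.47 to 2.64 TPM in Myc_WT_ LZ libraries and at 31.0, 38.7 and 52.2 TPM in MBCs (log2 difference 3.69, limma adjusted p = 0.00238). Sla, an adaptor that lowers receptor levels, was at 13.3 ± 2.63 and 55.3 ± 9.63 TPM (limma adjusted p = 0.00852). Grap, a GRB2-related adaptor, was at 48.9 ± 8.48 and 111 ± 4.01 TPM (limma adjusted p = 0.0221). Lpxn, the paxillin relative leupaxin, fell from 61.5 ± 11.2 to 27.2 ± 5.07 TPM (log2 difference -1.15, limma adjusted p = 0.0416), a call that 9 of 18 alternatives kept. The inhibitory receptor genes Fcgr2b, Cd72 and Siglecg did not pass (limma adjusted p of 0.960, 0.728 and 0.309). Fcgr2b was at 93.4, 24.0 and 96.1 TPM in MBCs, with mouse 3 below and the others above the LZ range of 47.6 to 71.6 TPM.

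**Figure D5:**
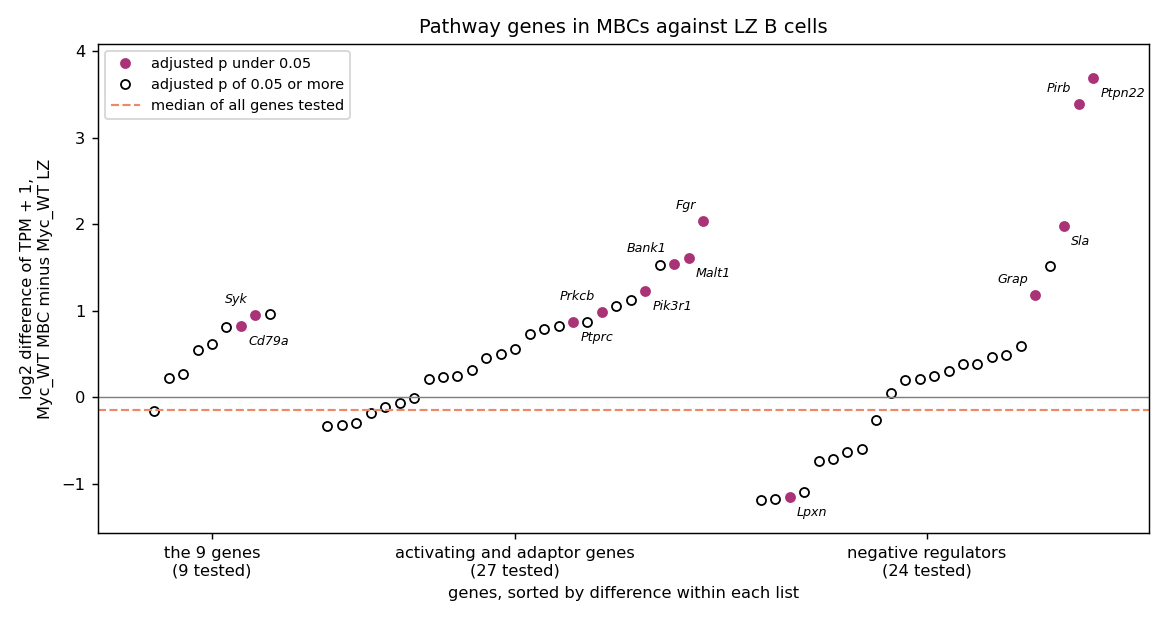
Log2 difference of TPM + 1 between Myc_WT_ MBCs and Myc_WT_ LZ B cells for the 9 genes, 27 activating and adaptor genes and 24 negative regulators, sorted within each list. Filled and named points passed an adjusted p of 0.05, and the dashed line marks the median of all genes tested, -0.14.

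In Myc_VD_ LZ B cells none of 26 activating genes and 23 negative regulators tested was called. At an unadjusted p under 0.05, 5 and 8 of them were lower and none was higher, where 15.7% of all genes were lower. These counts changed under other scalings: after median-ratio rescaling 3 activating genes were lower and 1 higher, and no negative regulator was lower while Cd72 and Siglecg were higher. Of all genes 5.52% were higher and 6.3% lower under that scaling. After quantile normalization the counts were 3 lower and 0 higher of the activating genes and 2 lower and 2 higher of the negative regulators. Of all genes 5.4% were then higher and 7.68% lower. On the deposited scale the median log2 differences of the 2 lists were -0.18 and -0.13, above the -0.31 of all genes. Lpxn was at 40.8, 47.2, 30.2 and 41.6 TPM in Myc_VD_ mice, below the 48.2 to 70.8 TPM of Myc_WT_ mice without overlap (log2 difference -0.61, limma adjusted p = 0.223, and -0.27 after median-ratio rescaling). Ptprc (-0.14) overlapped between the genotypes (limma adjusted p of 0.758), as did Fcgr2b (-0.01), Cd72 (0.33) and Siglecg (0.20). After median-ratio rescaling, quantile normalization and removal of ribosomal RNA genes Cd72 was at a log2 difference of 0.68, 0.62 and 0.65 and Siglecg at 0.54, 0.49 and 0.51. On the deposited scale Cd72 was at 0.10 without Myc_VD_ mouse 6 and at 0.499 without mouse 5. Siglecg was at 0.078 without mouse 5 and at 0.38 without mouse 6.

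As a description over the 11 libraries, which share the differences between groups, the genes most alike in pattern were sought for each of the 9 among 6867 genes averaging 10 TPM or more. Pearson r of log2(TPM + 1) was highest for Hook1 with Inpp5d (0.990), Phkg2 with Lyn (0.975) and Kidins220 with Syk (0.971). Tmem243 and Tlr9 were the nearest to Cd79a (0.963 and 0.962) and Immt and Cox7a2l, which encode mitochondrial proteins, the nearest to Ptpn6 (0.952 and 0.948). Cd22 had the least close neighbour, Avl9 (0.905). The median r over all genes compared lay between 0.028 for Cd22 and 0.23 for Btk. Among the 9 themselves, Syk and Inpp5d were the closest pair over all 11 libraries (r = 0.926) and over the 8 LZ libraries still had r = 0.832. The 8 LZ libraries hold both genotypes, and TPM were not rescaled before r was taken. Cd79a and Syk, the 2 genes called in MBCs, had r = 0.748 over 11 libraries and r = -0.0753 over the 8 LZ libraries, a value near 0 among LZ mice. Over the 8 LZ libraries the closest pair was Cd79b and Inpp5d (r = 0.937, and 0.802 over all 11), followed by Ptpn6 and Btk (r = 0.897, and 0.406 over all 11).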

How the data were processed

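Libraries of sorted LZ B cells and MBCs were sequenced, 11 in all. The authors aligned reads with STAR (2.5.2a in the submitters' notes), quantified them by strand with RSEM 1.3.0 on Ensembl transcripts of GRCm38, and deposited TPM with 2 decimals. The annotation release is not given in the sources used here. TPM keep no depth, so precision comes from the spread between mice. The labels and the study's methods give different SRBC doses. Symbols and coordinates came from GENCODE M21.

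Genes averaging 1 TPM or more over the libraries compared were tested on log2(TPM + 1) with limma 3.58.1 (R 4.3.3; lmFit, eBayes with a trend), only the compared groups in a fit, two-sided, with Benjamini-Hochberg adjustment over all genes. Differences on this scale understate those of low genes. Each gene named also had an exact permutation test over libraries. The fit was tested on simulated data. Alternatives changed the pseudocount (0.1), the filter (none or 5 TPM), the scaling (median ratio, quantile, without ribosomal RNA genes, without immunoglobulin and mitochondrial genes), the trend, the groups in the fit, the threshold and the libraries. MBC and LZ libraries of mice 1, 3 and 4 are paired by animal in the labels; their deviations from group means had r = 0.00515, 0.0114 and -0.047 across genes.

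The 9 genes, the lists and the tests were chosen with earlier results of these data known. Of the pathway lists Ptprc, Plcg2, Fcgr2b, Cd72 and Siglecg are always named, with the 10 others of largest difference that passed. Of the activating list 2 genes are not reported here and were left out of its counts; they stayed in the fit of all genes. The 2 genes most alike in pattern were sought for each of the 9 and the closest are named.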

Additional observations from a re-analysis of the deposited data

Results flagged for a closer look

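In groups of 4 libraries, 58 sets of values were screened for a library that stood far from the others, which chance gives in about 1 of 20 sets, and 3 were found, about the number chance would give. They came from the LZ library of Myc_WT_ mouse 2. The ratio of Lyn to Syk was 0.872 there and 1.16, 1.18 and 1.22 in the other Myc_WT_ LZ libraries, the only Myc_WT_ LZ library with more Syk than Lyn. Cd72 was at 113 TPM, against 77.4, 82.3 and 82.5 TPM in the others. Bank1 was at 194 TPM, against 159, 164 and 165 TPM.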

How the results depend on the processing

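Precision is limited by 4, 4 and 3 mice, by an unknown depth and by the fixed total of TPM. Of single genes, 614 of 741 values under alternatives kept their direction and their side of the threshold. No alternative with an adjusted threshold called any of the 9 genes in Myc_VD_. The cause of each change below was not tested unless stated.

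In MBCs the count of the 9 genes called higher (2) was 1 with a pseudocount of 0.1, without a filter, after median-ratio rescaling and without ribosomal RNA genes, 4 without immunoglobulin and mitochondrial genes (Blnk, Cd79a, Lyn and Syk), 0 without a trend and 0 with mice as a replicate block (6 libraries remain), and 5 at an unadjusted p; with each library left out it was 0 to 3. Activating genes called higher (6) were 2 without a trend and 3 in Myc_WT_ mice 1 to 3 alone, which share a title prefix. They were 1 with the replicate block, 10 at an unadjusted p and 2 to 8 with a library left out. Negative regulators called higher (4) were 2 with the block and 3 to 5 with a library left out; called lower (1), they were 0 without a filter, without immunoglobulin and mitochondrial genes, without a trend and with the block, 3 at an unadjusted p and 0 to 3 with a library left out. The block changed no other call of the 9 genes. The median difference of the 9 (0.62) was 0.85 without immunoglobulin and mitochondrial genes. Over all genes that removal took the median from -0.14 to 0.0125 and the genes called higher from 552 of 13245 to 837 of 13745. In Myc_VD_ an unadjusted p called 1 of the 9, 5 activating genes and 8 negative regulators lower, and 0 to 1 activating genes were called lower with a library left out. With an unadjusted p after median-ratio rescaling, quantile normalization and ribosomal RNA removal, an alternative added after seeing the data, 2, 1 and 1 of the 9 were higher and none lower, activating genes were 1, 0 and 1 higher and 3, 3 and 3 lower, and negative regulators 2, 2 and 2 higher and 0, 2 and 0 lower. The shares of all genes under these scalings are given above.

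All genes called in MBCs (1219) were 608 without a filter, 342 without LZ mouse 2, 2754 without MBC mouse 4 and 248 with the block; in Myc_VD_ (6) they were 0 to 254 under adjusted thresholds, the highest without mouse 5.

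In Myc_VD_, where rescaling brought the median of all genes from -0.31 to about 0, median-ratio, quantile and ribosomal RNA removal, in that order, turned the median of the 9 to 0.088, 0.081 and 0.057, Cd79a to 0.20, 0.25 and 0.17, Cd79b to 0.058, 0.081 and 0.026, Syk to 0.088, 0.029 and 0.057, Lyn to 0.28, 0.23 and 0.25, Ptprc to 0.20, 0.25 and 0.17, Plcg2 to 0.13, 0.049 and 0.097 and Fcgr2b to 0.32, 0.23 and 0.30. Inpp5d became 0.034 and 0.0018 under the first and the last. Without immunoglobulin and mitochondrial genes Lyn became 0.066 and Fcgr2b 0.12. Without Myc_WT_ mouse 4, whose title prefix no other mouse has, Blnk became -0.028 and Fcgr2b 0.012. That fit is the same as the one with this LZ library left out. With a library left out Cd79a ran from -0.25 to 0.063, Lyn from -0.13 to 0.030, Blnk from -0.028 to 0.15, Cd22 from -0.051 to 0.33, Ptprc from -0.26 to 0.021 and Fcgr2b from -0.11 to 0.083. In MBCs Ptpn6 became 0.067 without immunoglobulin and mitochondrial genes, Fcgr2b -0.094 after quantile normalization, -0.039 without ribosomal RNA genes and -0.26 in mice of the first prefix, and Cd72 -0.21 in those mice; with a library left out Ptpn6 ran from -0.38 to 0.10, Fcgr2b from -0.28 to 0.69 and Cd72 from -0.15 to 0.50.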
